A study of Mus musculus with 16 samples.

Results

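Genes of the splicing regulator families Srsf, Hnrnp and Clk and of the Rbm family (RNA-binding motif proteins) were followed in lung endothelial cells across the course of a mouse tumour model. Members were all rows of the deposited expression table whose symbol is Srsf plus a number, begins with Hnrnp, is Clk1 to Clk4, or is Rbm plus a number with or without further letters. The rule uses names and no measured value, but it was chosen with earlier results of these data known. It found 62 of 17715 entries: 10 Srsf, 19 Hnrnp, 4 Clk and 29 Rbm genes. RNA had been sequenced from endothelial cells, the cells that line blood vessels, which were sorted from lungs of female C57BL/6N mice. In the model, Lewis lung carcinoma cells (LLC, a transplantable mouse tumour line that spreads to the lung) were placed under the skin. The 4 groups were mice without a tumour (d0, called wild type in the labels), mice with the primary tumour (d15), mice whose primary tumour had been resected (d22) and mice with metastases (d36), and no other genotype or agent is named. Each group had 4 libraries, which the submitters call independent biological replicates. The age of the mice and the antibodies of the sort are not given in the sources used here. The library d36 replicate 1 carries day 29 in its title and its column header and d36 in its time point field, which was followed.

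SR proteins, encoded by the Srsf genes, bind exons through RNA recognition motifs and draw the splicing machinery to nearby splice sites through a domain rich in arginine and serine. The kinases encoded by the Clk genes phosphorylate that domain and so set where SR proteins lie and how active they are. Proteins of the hnRNP group coat nascent transcripts and often oppose SR proteins at the same exons, and Rbm proteins are a mixed group that shares an RNA-binding domain and includes spliceosome parts, splicing regulators and decay factors. Many genes of these families control their own mRNA through exons or introns that lead to decay or nuclear retention, which a gene-level value does not resolve. The roles named below come largely from work on the human proteins.

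Promoter sequences are shown as examples for 5 of the members called in at least 1 comparison. They are the 100 bases before a RefSeq start site (build GRCm38.p6), 5′ to 3′ on the gene's strand. Capitals mark matches to CCAAT or to the GC box GGGCGG on either strand, so that CCAAT on the other strand reads ATTGG. The windows are chr6:51469895-51469994 (minus strand) for Hnrnpa2b1, chr15:103240297-103240396 (plus strand) for Hnrnpa1, chr14:52104022-52104121 (minus strand) for Hnrnpc, chr11:116853095-116853194 (minus strand) for Srsf2 and chr2:156180239-156180338 (minus strand) for Rbm39.
Hnrnpa2b1: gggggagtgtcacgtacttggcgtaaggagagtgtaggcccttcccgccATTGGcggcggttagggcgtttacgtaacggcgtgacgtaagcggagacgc
Hnrnpa1: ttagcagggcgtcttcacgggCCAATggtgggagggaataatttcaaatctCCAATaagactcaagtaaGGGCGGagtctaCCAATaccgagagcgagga
Hnrnpc: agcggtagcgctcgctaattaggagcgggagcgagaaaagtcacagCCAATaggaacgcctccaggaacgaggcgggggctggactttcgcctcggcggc
Srsf2: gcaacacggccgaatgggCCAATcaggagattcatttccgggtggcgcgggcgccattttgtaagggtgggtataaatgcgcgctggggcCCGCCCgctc
Rbm39: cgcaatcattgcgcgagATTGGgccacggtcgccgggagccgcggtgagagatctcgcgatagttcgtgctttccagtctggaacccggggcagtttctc
Each of the windows printed holds at least 1 CCAAT match, and those of Hnrnpa1 and Srsf2 also hold a GC box. The examples do not stand for the members as a whole: within 250 bases, 25 of 52 member genes had a CCAAT match. Rbm39 has another start site in RefSeq, and the 100 bases before it (chr2:156179581-156179680) hold no match to either motif. RefSeq promoters were matched by symbol for 52 of the 62 members, with 69 start sites. Over the 250 bases before the start, on both strands, CCAAT was found in 43.5% of members' windows, against 33.8% of the 32851 windows of all genes. GGGCGG was found in 62.3% of members' windows, against 32.7% of all windows, and the core CCGGAAG of the ETS family in 21.7% against 6.9%. The cyclic AMP response element TGACGTCA stood in 1.4% of members' windows (Clk4 alone) and 1.5% of all windows. TATAAA stood in 10.1% of members' windows and 12.4% of all windows. These shares describe the letters in the windows, and no binding was measured.

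Expression was deposited as RPKM, which scales reads to transcript length and library size. Approximate depth, read from the steps between low values, ran from 93.4 to 152.1 mega-reads per library, so an RPKM of 1 stands for about 93 reads per kilobase in the shallowest library. Entries were tested where 4 or more of the 16 libraries reached 1 RPKM, which held for 14303 entries and 60 members. Endothelial identity was checked with 12 markers, all above 1 RPKM on average in each group, whose summed RPKM was 5946 to 7062 at d0, 5337 to 6720 at d15, 4995 to 5683 at d22 and 4039 to 5285 at d36. Libraries of d36 were less alike than those of other groups: the lowest correlation across entries within a group was 0.98 at d0, 0.979 at d15, 0.978 at d22 and 0.92 at d36. On the first principal component (39.9% of the variance) d36 replicates 1, 7 and 8 scored 46.6, 57.5 and 42.9, and d36 replicate 9 scored -4.79, among the libraries of the other groups. Counts of members called at d36 are therefore given with and without replicate 9, and, for its title, with and without replicate 1. Values of single members are mostly those of all libraries. In such bulk samples fewer cells of a type and less RNA per cell cannot be told apart.

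Most members were well expressed. Mean RPKM over the 16 libraries was at least 50 for 6 members, 10 to 50 for 20, 1 to 10 for 34 and under 1 for 2. Hnrnpk had the highest level of all members at 123 RPKM, followed by Srsf7 at 114 RPKM, Srsf5 at 113 RPKM, Srsf2 at 88.9 RPKM, Clk3 at 76.0 RPKM and Hnrnpa2b1 at 55.5 RPKM. The ranges over libraries of each of these genes and the next in the order overlapped. The members that were not tested were Rbm12b1, at 0.214 to 0.489 RPKM, and Rbm47, at 0.00822 to 1.06 RPKM.

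Differences between groups were tested with limma on log2(RPKM + 1) over all 14303 entries and 16 libraries, and called at an adjusted p (Benjamini-Hochberg) under 0.05. A fold change below is the log2 difference on that scale, later group minus earlier group, and it understates changes of genes near 1 RPKM. The comparisons of d15, d22 and d36 with d0 share the d0 libraries. An F test over these 3 comparisons called 28 of the 60 tested members (46.7%), against 28.7% of all entries: 4 of 10 Srsf, 10 of 19 Hnrnp, 2 of 4 Clk and 12 of 27 Rbm genes.

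With the primary tumour in place (d15 against d0), no member was called higher or lower by limma. The background was 0.608% of entries called higher and 0.573% called lower. At an unadjusted p under 0.05, 10 of the 60 members were higher and 4 lower, against 1039 and 1314 of the 14303 entries. The members' median log2 fold change was 0.08, against -0.02 over all entries tested. Among the members given in every library, Hnrnpa1, Hnrnpc and Rbm39 had all d15 libraries above all d0 libraries, without passing the test. Clk3 and Srsf7 had all d15 libraries below all d0 libraries, also without passing. The members given in every library were chosen partly by the F test on these data. How many of all entries were apart in this way was not counted. In the authors' deposited table, whose comparison group is not named, 9 members were higher and none lower at d15 at an adjusted p under 0.05, against 5.07% and 2.82% of its entries.

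After resection (d22 against d0), a minority of the Srsf, Hnrnp and Rbm genes and 2 of the 4 Clk genes were called higher. The call was made for 16 of 60 members (26.7%), against a background of 8.09% of entries called higher. These were 3 Srsf, 6 Hnrnp, 2 Clk and 5 Rbm genes, with log2 fold changes from 0.29 to 0.87. Rbm22 was the 1 member called lower (1.67% of members, against 7.10% of entries). The median log2 fold change was 0.15 over members and 0.02 over all entries. The count was 10 without d0 replicate 1 and 10 without d22 replicate 6, when 5.36% and 5.11% of all entries were called higher. The 10 members called in each of the 8 fits that left out 1 library were Clk4, Srsf10, Srsf11, Hnrnpa2b1, Hnrnpa3, Hnrnpc, Hnrnpdl1, Rbm25, Rbm26 and Rbm39. After removal of a trend on transcript length and GC content, described further on, 9 members were called higher, against 3.59% of entries.

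With metastases (d36 against d0), members of all 4 families were higher, among them 13 of the 19 Hnrnp genes. The call was made for 26 of 60 members (43.3%), against 16.6% of entries. The others were 5 of 10 Srsf, 1 of 4 Clk and 7 of 27 Rbm genes, and the 26 had log2 fold changes from 0.27 to 1.13. Clk3 and Rbm10 were called lower (3.33% of members, against 7.37% of entries). The median log2 fold change was 0.36 over members and 0.04 over all entries. The 15 members called higher in each of the 8 fits that left out 1 library were Clk4, Srsf10, Srsf11, Hnrnpa1, Hnrnpa2b1, Hnrnpa3, Hnrnpc, Hnrnpdl1, Hnrnpk, Hnrnpll, Hnrnpm, Hnrnpr, Rbm7, Rbm17 and Rbm39. Without d36 replicate 9, 28 members were higher (21.8% of entries) and 3 lower. Without d36 replicate 1, 18 were higher (12.9% of entries) and 2 lower. Of the 28 calls with all libraries, 24 were kept without replicate 9 and 20 without replicate 1. Of the calls over all entries 69.3% were higher, and 57.1% after median scaling of the libraries, when 21 members were higher and 2 lower. With the trend on length and GC content removed, 7 members were called higher, against 10.1% of entries, and 5 lower.

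**Figure D1:**
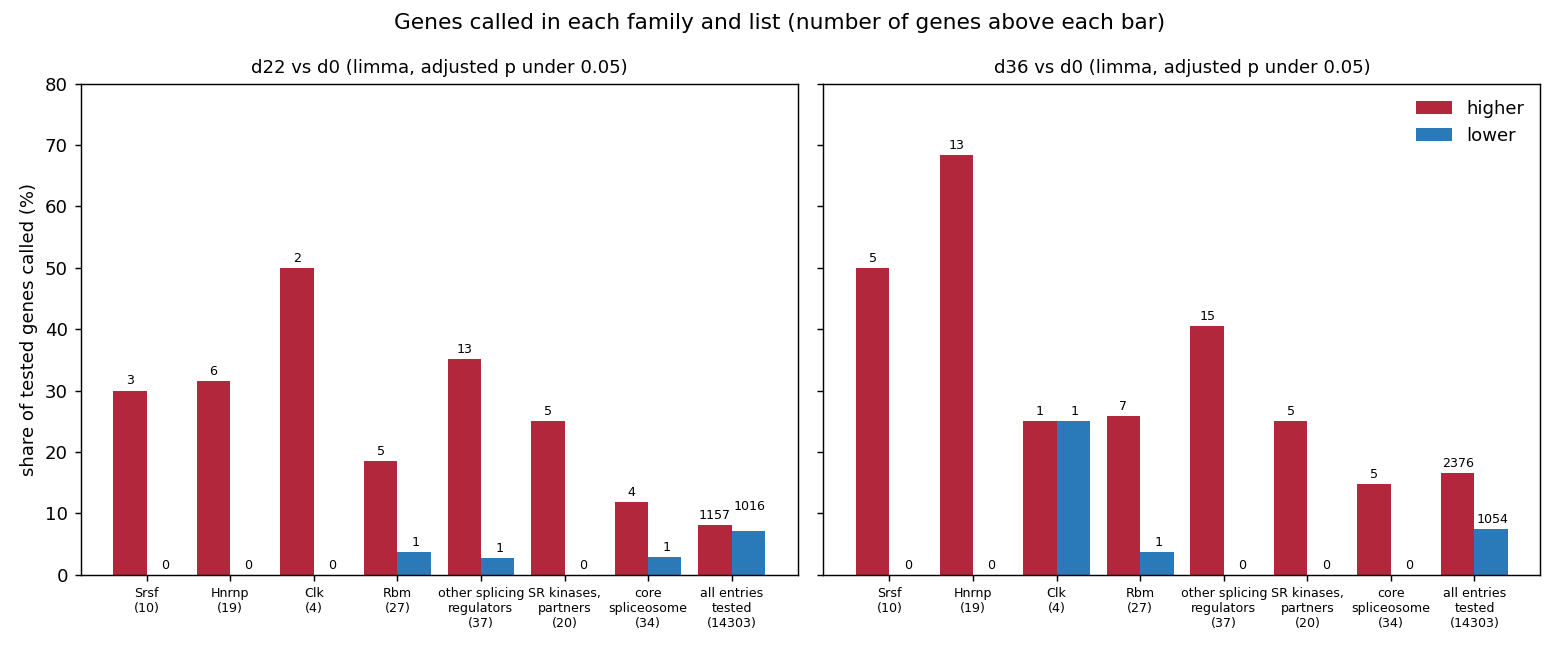
Share of tested genes called higher (red) or lower (blue) by limma, in percent on the vertical axis, for d22 against d0 and d36 against d0; the number of genes stands above each bar and the number tested under each name. Hnrnp genes reached 13 of 19 called higher at d36, and all entries tested stood at 8.09% at d22 and 16.6% at d36.

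The Clk genes differed in direction. Clk4 and, at d22, Clk1 were higher than at d0, Clk3 was lower at d36, and Clk2 passed no test. Positions are those of GENCODE vM21 on GRCm38.p6. Clk4, at chr11:51261730-51281766 on the plus strand, had 27.8, 27.4, 29.3 and 30.3 RPKM at d0, 32.7, 34.0, 28.6 and 24.4 RPKM at d15, 43.6, 45.5, 41.1 and 39.9 RPKM at d22 and 44.0, 34.4, 41.4 and 44.4 RPKM at d36. All libraries of d22 and d36 lay above all libraries of d0, with d15 overlapping d0. The log2 fold change over d0 was 0.55 ± 0.11 (SE, adjusted p = 0.00451) at d22 and 0.50 ± 0.11 (SE, adjusted p = 0.00474) at d36. Clk4 was also called higher at d22 than at d15, by 0.50 ± 0.11 (SE, adjusted p = 0.0238). With the trend on transcript length and GC content removed, Clk4 stayed called at d22 over d0 (0.30) and was not called at d36 over d0 (0.14) or at d22 over d15 (0.32).

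Clk1, at chr1:58410189-58424066 on the minus strand, had 14.0, 17.6, 14.5 and 14.2 RPKM at d0, 22.1, 22.9, 30.8 and 14.2 RPKM at d15, 20.99, 19.95, 22.1 and 30.3 RPKM at d22 and 23.8, 19.6, 16.9 and 22.9 RPKM at d36. The d22 libraries all exceeded those of d0, while d15 was spread widely and d36 reached into the d0 range. Relative to d0, the log2 fold change was 0.59 ± 0.19 (SE, adjusted p = 0.0417) at d22 and 0.43 ± 0.19 (SE, adjusted p = 0.1003) at d36. The call at d22 rested on few libraries: the adjusted p was 0.142 without d22 replicate 6, the test was passed in 2 of the 8 fits that left out 1 library, and after removal of the length and GC trend its value was 0.28, which was not called.

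Clk3, at chr9:57750624-57765860 on the minus strand and the most abundant of the 4 kinases, had 84.9, 84.9, 91.1 and 94.9 RPKM at d0, 72.3, 81.6, 60.8 and 81.2 RPKM at d15, 76.0, 80.7, 81.9 and 76.7 RPKM at d22 and 59.4, 51.9, 63.4 and 75.0 RPKM at d36. Every d15, d22 and d36 library was below every d0 library, and the lowest value was that of d36 replicate 7. It fell by 0.52 ± 0.12 (SE, adjusted p = 0.00500) at d36 relative to d0, and stood at -0.27 ± 0.12 (SE, adjusted p = 0.254) at d15 and -0.17 ± 0.12 (SE, adjusted p = 0.350) at d22. With the trend on transcript length and GC content removed, Clk3 was still called lower at d36 than at d0, at -0.59. Exons of Clk3 share 15.2% of their bases with Edc3 on the opposite strand. Clk2 had 9.76, 13.8, 12.2 and 9.48 RPKM at d0, 10.2, 8.82, 7.73 and 10.1 RPKM at d15, 8.38, 8.96, 7.51 and 10.4 RPKM at d22 and 7.86, 7.20, 8.45 and 12.9 RPKM at d36. Its groups overlapped throughout, with a log2 fold change over d0 of -0.32 ± 0.16 (SE, adjusted p = 0.192) at d22 and -0.30 ± 0.16 (SE, adjusted p = 0.187) at d36. The 95% interval of the d36 value was -0.64 to 0.04.

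**Figure D2:**
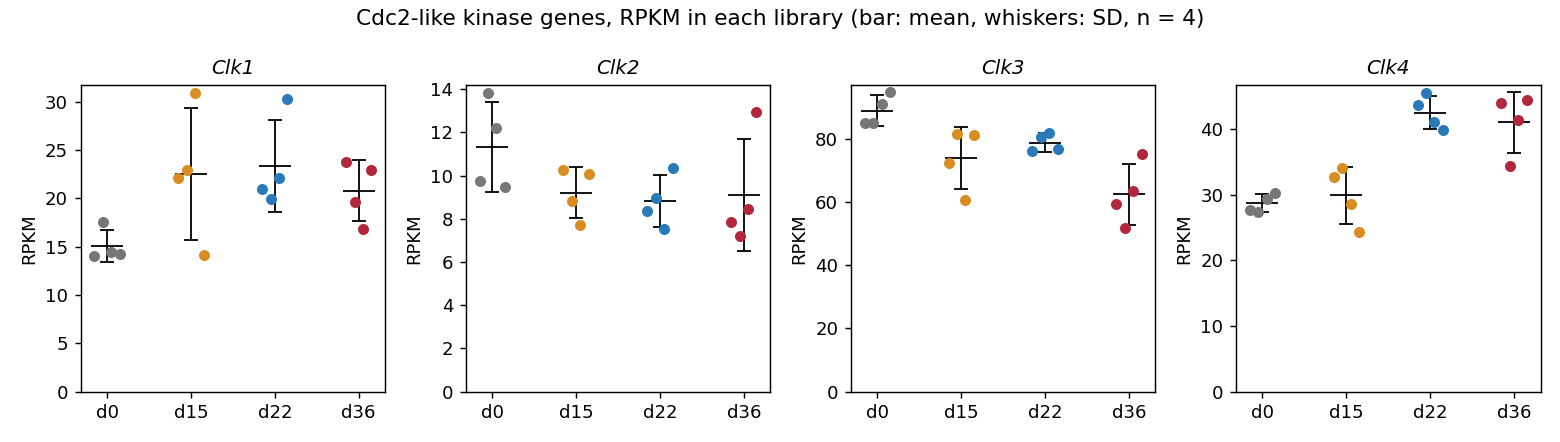
RPKM of the 4 Clk genes in each library (points), by time point, with the mean (bar) and SD (whiskers) of 4 libraries; the vertical axes start at 0 and differ between genes. Clk4 was above all d0 libraries in each d22 and d36 library, and Clk3 was below all d0 libraries in each later one.

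Among the SR protein genes, Srsf1, Srsf10 and Srsf11 were called higher at both d22 and d36 relative to d0, and Srsf2 and Srsf3 at d36. None was called lower. Srsf10 encodes an SR protein known as a splicing repressor when dephosphorylated, as in heat shock and mitosis. Its gene lies at chr4:135855747-135869908 on the plus strand. It had 10.7, 9.85, 10.1 and 10.2 RPKM at d0, 11.8, 10.6, 11.7 and 10.2 RPKM at d15, 15.2, 14.0, 14.7 and 14.3 RPKM at d22 and 17.5, 15.6, 16.7 and 13.8 RPKM at d36. The d22 and d36 libraries all lay above the d0 and d15 libraries. On the log2 scale the difference from d0 was 0.47 ± 0.09 (SE, adjusted p = 0.00346) at d22 and 0.58 ± 0.09 (SE, adjusted p = 0.000371) at d36. Srsf10 was also higher at d22 than at d15, by 0.37 ± 0.09 (SE, adjusted p = 0.0385). After trend removal Srsf10 was still called over d0, at 0.27 for d22 and 0.26 for d36, and not over d15, at 0.23.

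Srsf11, whose protein binds the U2AF complex at the end of introns, had 7.24, 6.87, 6.05 and 6.38 RPKM at d0, 8.21, 6.61, 9.17 and 9.11 RPKM at d15, 10.7, 10.5, 10.1 and 14.0 RPKM at d22 and 10.3, 11.2, 10.1 and 8.91 RPKM at d36. The d22 and d36 libraries were all above those of d0. As log2 fold changes over d0 the values were 0.68 ± 0.12 (SE, adjusted p = 0.00207) at d22 and 0.54 ± 0.12 (SE, adjusted p = 0.00440) at d36. Srsf1, among the first SR proteins found, was low in these cells, at 1.13, 1.89, 1.83 and 1.79 RPKM at d0, 2.48, 1.93, 1.83 and 1.76 RPKM at d15, 3.06, 2.55, 2.75 and 3.95 RPKM at d22 and 2.45, 2.24, 2.13 and 3.86 RPKM at d36. Its d22 and d36 libraries again lay above all d0 libraries. The log2 fold change over d0 was 0.61 ± 0.15 (SE, adjusted p = 0.0137) at d22 and 0.45 ± 0.15 (SE, adjusted p = 0.0410) at d36. The call for Srsf1 at d36 held in 3 of the 8 fits that left out 1 library, and the adjusted p was 0.124 without d0 replicate 1, the lowest library. Trend removal left Srsf11 called at d22 and not at d36 (0.30), and Srsf1 at neither time (0.32 at d22, 0.09 at d36).

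Srsf2 (SC35), which binds exonic enhancers, had 77.3, 74.9, 80.7 and 70.1 RPKM at d0, 91.2, 85.9, 86.4 and 60.6 RPKM at d15, 91.2, 103, 87.1 and 105 RPKM at d22 and 95.3, 95.7, 96.6 and 121 RPKM at d36. The d36 libraries and the d22 libraries all exceeded those of d0, with the highest value in d36 replicate 9. Relative to d0, the log2 fold change was 0.42 ± 0.13 (SE, adjusted p = 0.0245) at d36 and 0.35 ± 0.13 (SE, adjusted p = 0.0761) at d22. Exons of Mettl23 on the opposite strand share 15.6% of the exon bases of Srsf2. Srsf3, the smallest SR protein, averaged 43.6 ± 3.82 RPKM at d36 and 33.5 ± 1.68 RPKM at d0 (SD, n = 4 each), and was higher by 0.37 ± 0.11 (SE, adjusted p = 0.0243) on the log2 scale. The call for Srsf3 held in 4 of 8 fits that left out 1 library. Neither was called at d36 after trend removal, with Srsf2 at 0.33 and Srsf3 at 0.03; Srsf2 was then called at d22, at 0.47.

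Srsf7, the most abundant SR protein gene, had 112, 107, 119 and 116 RPKM at d0, 102, 97.6, 97.5 and 90.8 RPKM at d15, 129, 116, 112 and 98.3 RPKM at d22 and 171, 127, 127 and 105 RPKM at d36. It did not pass in any comparison: the log2 fold change over d0 was -0.23 ± 0.13 (SE, adjusted p = 0.389) at d15, when all libraries were below those of d0, and 0.20 ± 0.13 (SE, adjusted p = 0.269) at d36, when they were spread. The other 4 genes of the family, Srsf4, Srsf5, Srsf6 and Srsf9, passed in no comparison either. The next most abundant of them, Srsf5, averaged 112 ± 24.4 RPKM at d36 and 110.4 ± 7.18 RPKM at d0, with a log2 fold change of 0.01 and a 95% interval of -0.27 to 0.28. The summed RPKM of the 10 Srsf genes was 371 to 385 at d0, 323 to 401 at d15, 397 to 441 at d22 and 427 to 480 at d36.

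The Hnrnp genes had the largest share of calls of the 4 families at d36, a difference between families that was not tested. All 19 fold changes over d0 were above 0 at both d22 and d36, with 6 called at d22 and 13 at d36. Of the 14303 entries, 7590 and 7847 were above 0. At d15, when none was called, 18 of the 19 were already above 0, against 6674 entries. These comparisons share the d0 libraries. After median scaling of the libraries 19 were above 0 at d22 and 18 at d36. After removal of a trend on transcript length and GC content 17 were above 0 at d15, 13 at d22 and 16 at d36. The median log2 fold change of the Hnrnp genes was 0.34 at d22 and 0.47 at d36, and 0.19 and 0.29 with that trend removed. The summed RPKM of the family was 329 to 351 at d0, 366 to 410 at d15, 406 to 425 at d22 and 428 to 515 at d36. The later groups did not overlap d0, and no test was made of the sum.

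Hnrnpa2b1, at chr6:51460932-51469894 on the minus strand, encodes a protein that binds exons and also sorts RNAs for transport. It had 36.6, 47.4, 44.2 and 44.8 RPKM at d0, 52.3, 47.5, 42.7 and 42.6 RPKM at d15, 63.6, 58.5, 67.5 and 73.2 RPKM at d22 and 76.1, 62.3, 58.1 and 70.3 RPKM at d36. Each d22 and d36 library exceeded each d0 and d15 library. On the log2 scale the difference from d0 was 0.59 ± 0.12 (SE, adjusted p = 0.00354) at d22 and 0.61 ± 0.12 (SE, adjusted p = 0.00150) at d36. It was called higher at d22 than at d15 as well, by 0.50 ± 0.12 (SE, adjusted p = 0.0291). Hnrnpa3, a close relative, had 0.458, 0.833, 0.581 and 0.596 RPKM at d0, 0.773, 0.475, 1.03 and 0.862 RPKM at d15, 1.56, 1.38, 1.06 and 1.63 RPKM at d22 and 1.59, 1.67, 1.48 and 1.45 RPKM at d36. The pattern matched that of Hnrnpa2b1 in which groups were apart, at far lower values. As log2 fold changes over d0 the values were 0.57 ± 0.12 (SE, adjusted p = 0.00419) at d22 and 0.66 ± 0.12 (SE, adjusted p = 0.000860) at d36, and over d15 it was 0.44 ± 0.12 (SE, adjusted p = 0.0495) at d22. After trend removal Hnrnpa2b1 was called at d22 over d0 only (0.45, with 0.32 at d36 over d0 and 0.40 at d22 over d15). Hnrnpa3 was then called in none of these, at 0.27, 0.29 and 0.24 in the same order. The values of Hnrnpa3 are uncertain, since 25 other annotated genes, 23 of them pseudogenes, hold stretches of at least 500 bases at 95% identity or more.

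Hnrnpa1, which represses exons and competes with SRSF1 in human cells, was called at d36 over both d0 and d22. Its gene lies at chr15:103240432-103246692 on the plus strand, with 3 CCAAT matches in the window shown above. It had 4.87, 5.30, 5.98 and 6.12 RPKM at d0, 7.56, 7.83, 6.53 and 7.49 RPKM at d15, 6.21, 6.67, 5.76 and 4.37 RPKM at d22 and 15.97, 14.5, 15.5 and 8.70 RPKM at d36. The d22 libraries overlapped d0, and the d36 libraries lay above all others, 3 of them close together and d36 replicate 9 lower. Hnrnpa1 had the largest fold change of any member, 1.13 ± 0.16 (SE, adjusted p = 0.000179) at d36 over d0, and 1.10 ± 0.16 (SE, adjusted p = 0.000791) at d36 over d22. At d22 over d0 it was 0.03 ± 0.16 (SE, adjusted p = 0.919). Without d36 replicate 9 the difference from d0 was 1.32, the largest of the fits that left out 1 library, and the lowest of them was 1.05. There are 9 pseudogenes near-identical to Hnrnpa1, so reads of these copies may have been shared with it or lost.

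Hnrnpc binds runs of uridine and keeps U2AF2 from cryptic exons in human cells, and its gene lies at chr14:52073377-52104028 on the minus strand. It had 2.62, 2.76, 2.69 and 2.48 RPKM at d0, 3.96, 4.01, 6.64 and 2.84 RPKM at d15, 4.93, 5.06, 5.03 and 6.45 RPKM at d22 and 5.50, 4.80, 5.59 and 6.20 RPKM at d36. All later libraries were above d0, and d15 replicate 5 was the highest of all. The log2 fold change over d0 was 0.51 ± 0.16 (SE, adjusted p = 0.114) at d15, 0.80 ± 0.16 (SE, adjusted p = 0.00376) at d22 and 0.84 ± 0.16 (SE, adjusted p = 0.00147) at d36. Hnrnpm, known for setting epithelial and mesenchymal splice forms, had 25.9, 32.0, 26.7 and 26.6 RPKM at d0, 38.4, 32.2, 23.7 and 29.7 RPKM at d15, 34.6, 38.5, 34.3 and 39.7 RPKM at d22 and 47.1, 49.3, 44.4 and 42.9 RPKM at d36. The d22 and d36 groups were both apart from d0, with d36 the higher. Relative to d0, the log2 fold change was 0.39 ± 0.12 (SE, adjusted p = 0.0407) at d22 and 0.71 ± 0.12 (SE, adjusted p = 0.000866) at d36. The d22 call of Hnrnpm held in 1 of the 8 fits that left out 1 library and ended after trend removal (0.36). Hnrnpc stayed called after trend removal, at 0.70 at d22 and 0.55 at d36.

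Hnrnpk, which binds runs of cytidine and was the most abundant member, had 106, 110.2, 108 and 112 RPKM at d0, 122, 135, 116 and 111 RPKM at d15, 123, 124, 118 and 99.7 RPKM at d22 and 150.0, 139, 163 and 129 RPKM at d36. Its d36 libraries were above all d0 libraries, and d22 overlapped d0. On the log2 scale the difference from d0 was 0.40 ± 0.10 (SE, adjusted p = 0.0103) at d36 and 0.08 ± 0.10 (SE, adjusted p = 0.628) at d22. Trend removal ended the d36 call of Hnrnpk, with 0.12. Hnrnpdl1 and Hnrnpr were the other calls at d22, at 0.50 ± 0.12 (SE, adjusted p = 0.0110) and 0.29 ± 0.09 (SE, adjusted p = 0.0418) over d0, and were also called at d36, at 0.57 and 0.38. Hnrnpr changed sign after trend removal, to -0.11 at d22 and -0.018 at d36, and held its d22 call in 2 of 8 fits that left out 1 library. Other calls at d36 were Hnrnpu, a chromatin-bound hnRNP, at 0.73 ± 0.23 (SE, adjusted p = 0.0315), Hnrnpll at 0.65 ± 0.16 (SE, adjusted p = 0.00753), Hnrnpab at 0.47 ± 0.15 (SE, adjusted p = 0.0288), Hnrnph1 at 0.45 ± 0.14 (SE, adjusted p = 0.0284) and Hnrnpd at 0.38 ± 0.12 (SE, adjusted p = 0.0270). Of these, Hnrnpu and Hnrnph1 overlapped d0 in at least 1 library. None of these 5 was called after trend removal, with values from 0.01 for Hnrnpd up to 0.37 for Hnrnpab, and without 1 library the calls of Hnrnpu and Hnrnph1 held in 3 of 8 fits, of Hnrnpd in 4 and of Hnrnpab in 5.

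**Figure D3:**
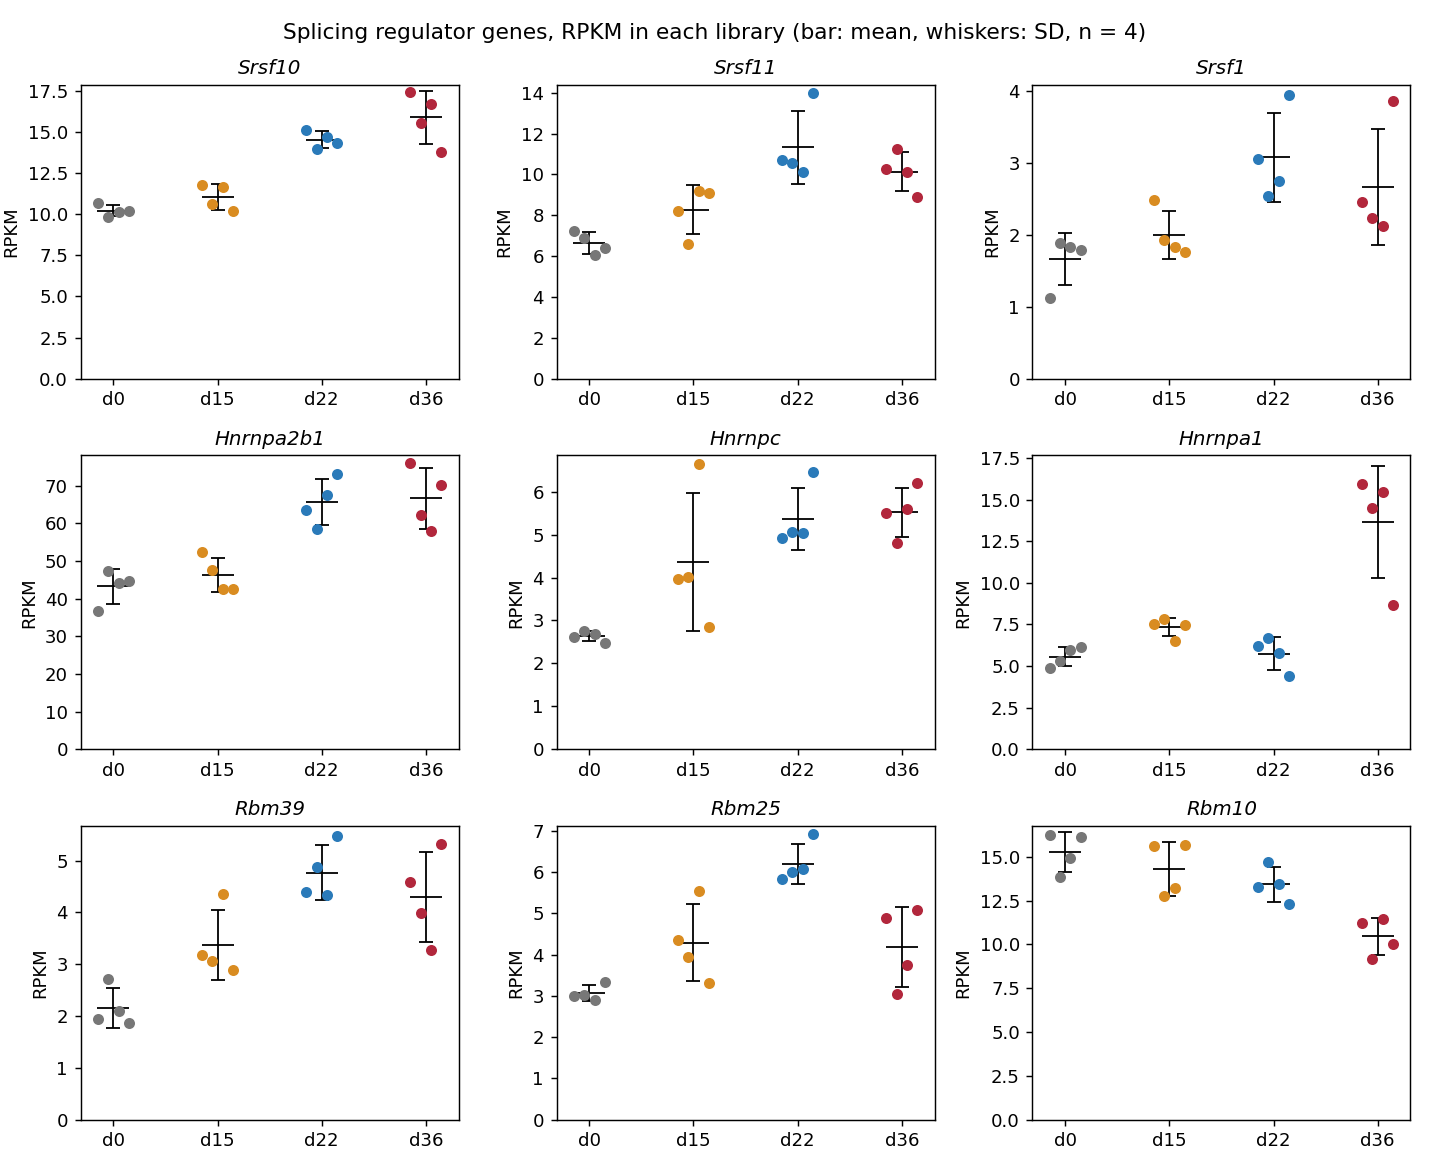
RPKM of 9 of the members given library by library (points), by time point, with the mean (bar) and SD (whiskers) of 4 libraries; vertical axes start at 0 and differ between genes. Srsf10 and Hnrnpa2b1 were high at d22 and d36, Hnrnpa1 at d36, Rbm25 at d22, and Rbm10 was low at d36.

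The Rbm genes were mixed. At d22, 5 of 27 tested were higher and Rbm22 lower than at d0; at d36, 7 were higher and Rbm10 lower. Rbm39, a splicing factor related to the large subunit of U2AF, had the largest fold change of any member at d22. Its gene lies at chr2:156147239-156180238 on the minus strand. It had 1.95, 2.71, 2.10 and 1.87 RPKM at d0, 3.17, 3.06, 4.36 and 2.90 RPKM at d15, 4.40, 4.87, 4.33 and 5.49 RPKM at d22 and 4.60, 3.99, 3.28 and 5.31 RPKM at d36. All later libraries were above all d0 libraries. As log2 fold changes over d0 the values were 0.87 ± 0.14 (SE, adjusted p = 0.00110) at d22 and 0.74 ± 0.14 (SE, adjusted p = 0.00142) at d36, and 0.46 ± 0.14 (SE, adjusted p = 0.103) at d15. It was still called after trend removal, at 0.78 at d22 and 0.46 at d36.

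Rbm25, at chr12:83631236-83683123 on the plus strand, encodes a protein that binds exons and contacts the U1 particle. It had 3.00, 3.03, 2.91 and 3.33 RPKM at d0, 4.36, 3.94, 5.54 and 3.32 RPKM at d15, 5.82, 5.99, 6.07 and 6.92 RPKM at d22 and 4.89, 3.03, 3.75 and 5.09 RPKM at d36. The d22 libraries were above all others. It differed by 0.82 ± 0.14 (SE, adjusted p = 0.00175) at d22 over d0 and 0.33 ± 0.14 (SE, adjusted p = 0.0958) at d36 over d0. It was lower at d36 than at d22, by 0.49 ± 0.14 (SE, adjusted p = 0.0316), a call that 2 of 8 fits without 1 library kept. After trend removal Rbm25 was still called at d22 over d0, at 0.48, and lower at d36 than at d22, at -0.54. Rbm26 and Rbm27, paralogues that in human cells work in nuclear RNA decay, were higher at d22 than at d0 by 0.56 ± 0.14 (SE, adjusted p = 0.0116) and 0.35 ± 0.10 (SE, adjusted p = 0.0303). At d36 over d0 the values were 0.35 ± 0.14 (SE, adjusted p = 0.0689) for Rbm26 and 0.33 ± 0.10 (SE, adjusted p = 0.0264) for Rbm27. Rbm12b2 was higher at d22 than at d0, by 0.55 ± 0.18 (SE, adjusted p = 0.0482); its copy Rbm12b1 is near-identical over most of its length. Trend removal ended the d22 calls of Rbm26 (0.42), Rbm27 (0.07, and -0.019 at d36) and Rbm12b2 (0.36), and without 1 library the d22 call held in 2 of 8 fits for Rbm27 and 1 of 8 for Rbm12b2.

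Rbm17 (SPF45), which takes part in the choice of the 3′ splice site, had 8.89, 9.75, 9.43 and 8.18 RPKM at d0, 8.98, 7.48, 7.66 and 8.75 RPKM at d15, 8.43, 9.40, 8.59 and 10.1 RPKM at d22 and 12.4, 11.8, 11.6 and 14.9 RPKM at d36. All d36 libraries were above all others. At d36 the log2 fold change was 0.44 ± 0.10 (SE, adjusted p = 0.00629) over d0 and 0.43 ± 0.10 (SE, adjusted p = 0.0135) over d22. Rbm34 also had its 4 highest libraries at d36, at 0.37 ± 0.12 (SE, adjusted p = 0.0372) over d0 and 0.43 ± 0.12 (SE, adjusted p = 0.0307) over d22. Other calls at d36 over d0 were Rbm7, a part of the nuclear exosome targeting complex, at 0.38 ± 0.10 (SE, adjusted p = 0.00933), Rbm48 at 0.44 ± 0.16 (SE, adjusted p = 0.0473) and Rbm18 at 0.27 ± 0.10 (SE, adjusted p = 0.0490). Trend removal kept the call of Rbm17 over d0 (0.37) and ended that over d22 (0.20) and both of Rbm34 (0.07 and 0.28). It also ended the calls of Rbm7 (0.09), Rbm48 (0.26) and Rbm18 (0.0032). Without 1 library the calls over d0 held in 3 of 8 fits for Rbm34, 2 for Rbm18 and 1 for Rbm48.

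Rbm10, at chrX:20617503-20650901 on the plus strand, encodes a regulator of exon skipping in human cells. It had 16.2, 13.8, 14.9 and 16.1 RPKM at d0, 15.6, 12.8, 13.2 and 15.7 RPKM at d15, 13.3, 14.7, 13.4 and 12.3 RPKM at d22 and 11.2, 9.17, 11.5 and 10.05 RPKM at d36. Its d36 libraries were below all others. It fell by 0.51 ± 0.10 (SE, adjusted p = 0.00238) at d36 relative to d0 and by 0.33 ± 0.10 (SE, adjusted p = 0.0442) relative to d22, a call that held in 1 of 8 fits without 1 library. Rbm22, a part of the activated spliceosome, had 11.5, 11.5, 9.25 and 10.7 RPKM at d0, 10.3, 11.1, 9.62 and 9.41 RPKM at d15, 9.65, 7.66, 8.08 and 6.57 RPKM at d22 and 8.63, 8.54, 9.88 and 11.1 RPKM at d36. Of the d22 libraries 3 lay below all d0 libraries, and d22 replicate 1 lay within their range. The log2 fold change at d22 over d0 was -0.39 ± 0.12 (SE, adjusted p = 0.0348). That call was kept in 2 of 8 fits that left out 1 library. After trend removal Rbm10 was still called lower at d36, at -0.54 over d0 and -0.40 over d22. Rbm22 was then called lower than at d0 at d22 (-0.45) and also at d36 (-0.36).

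Rbm38, a p53 target that binds the mRNA of p21, had 5.49, 6.35, 4.09 and 2.94 RPKM at d0, 3.14, 2.00, 3.79 and 2.80 RPKM at d15, 2.50, 3.24, 2.05 and 3.24 RPKM at d22 and 6.72, 6.91, 7.19 and 3.42 RPKM at d36. Its 3 highest d36 libraries exceeded all others, d36 replicate 9 was lower, and d0 was spread. It was higher at d36 than at d22 by 0.88 ± 0.22 (SE, adjusted p = 0.0157), and its value at d36 over d0 was 0.30 ± 0.22 (SE, adjusted p = 0.333). Rbm3, a cold-inducible protein, was higher at d36 than at d22 too, by 0.50 ± 0.14 (SE, adjusted p = 0.0233), at 14.5 ± 1.20 RPKM at d36 and 10.05 ± 1.86 RPKM at d22 (SD, n = 4 each). After trend removal Rbm38 was still called, at 0.77, and Rbm3 was not, at 0.33. Rbm42, the most abundant Rbm gene, had 31.4, 28.6, 25.3 and 28.5 RPKM at d0, 36.8, 22.1, 31.9 and 40.8 RPKM at d15, 24.8, 37.5, 23.0 and 37.8 RPKM at d22 and 21.1, 44.9, 31.2 and 21.9 RPKM at d36. Values within each group were spread and the groups overlapped, and at d36 over d0 the difference was 0.00 ± 0.23 (SE, adjusted p = 0.997) with a 95% interval of -0.48 to 0.48. The summed RPKM of the 29 Rbm genes was 224 to 241 at d0, 222 to 247 at d15, 234 to 252 at d22 and 253 to 271 at d36.

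**Figure D4:**
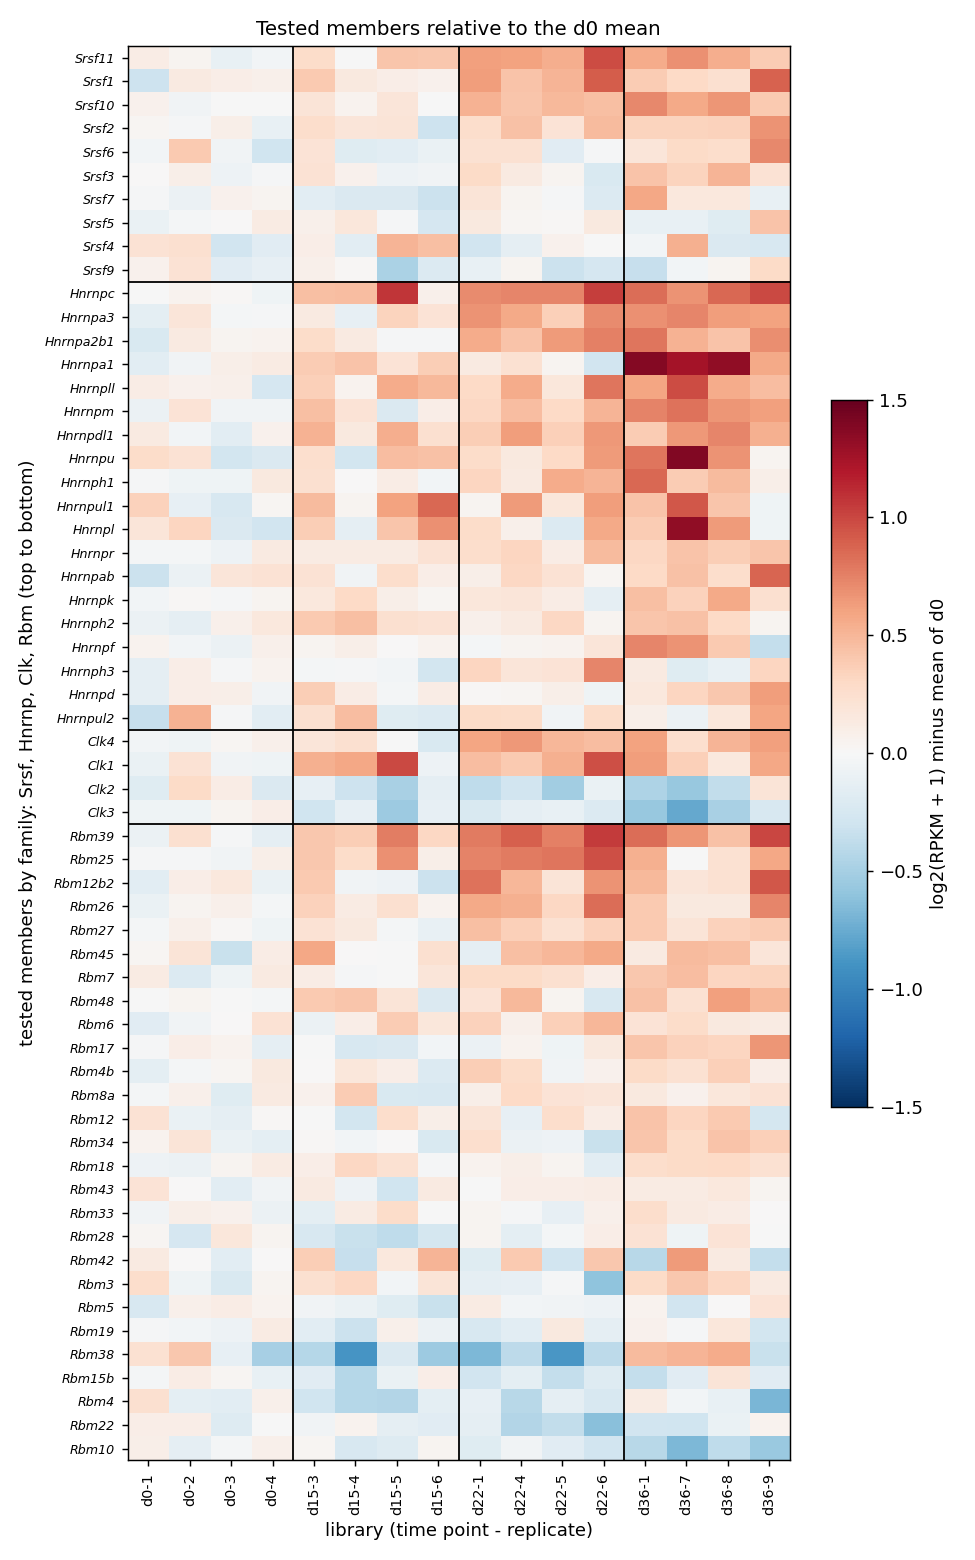
Log2(RPKM + 1) of the 60 tested members (rows, by family) in the 16 libraries (columns, by time point and replicate), relative to the mean of d0; red is higher and blue lower. Within a family, rows run from the largest to the smallest sum of the d22 and d36 log2 fold changes, and most Hnrnp rows are red in the d22 and d36 columns.

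In all, 25 of the 60 tested members were called in none of the 5 comparisons of the main fit: Clk2, 5 Srsf, 6 Hnrnp and 13 Rbm genes. Their lowest log2 fold change over d0 was -0.32 at d22 and -0.30 at d36, and their highest was 0.37 at d22 and 0.57 at d36. They include Rbm5, the paralogue of Rbm10, Rbm8a of the exon junction complex, and Hnrnpl, which binds CA repeats. Hnrnpf, Hnrnph2 and Hnrnph3, which bind runs of guanosine, are also among them. After removal of the trend on length and GC content, Rbm4 and Rbm5 were called lower at d36 than at d0. Hnrnph3 was then called lower at d36 than at d22.

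Between neighbouring time points fewer members were called. At d22 against d15, 4 members were higher (6.67% of members, against 2.00% of entries) and none lower (1.06% of entries): Clk4, Hnrnpa2b1, Hnrnpa3 and Srsf10, with the values given above. At an unadjusted p under 0.05, 14 of the 60 members were higher and 2 lower, against 1801 and 1109 of the 14303 entries. Each of the 4 calls was lost in at least 1 fit that left out a library, and none was left without d15 replicate 6 or without d22 replicate 1. Of the calls over all entries 65.4% were higher, and 48.4% after median scaling, when 2 members and 250 of the 14303 entries were higher. At d36 against d22, 5 members were higher (8.33%, against 8.73% of entries): Hnrnpa1, Rbm3, Rbm17, Rbm34 and Rbm38. At an unadjusted p under 0.05, 10 of the 60 members were higher and 4 lower, against 2595 and 1454 of the 14303 entries. Rbm10 and Rbm25 were called lower (3.33%, against 3.07% of entries). These shares are near those of all entries. Without d36 replicate 9, 9 members were higher and 4 lower, when 2291 of the 14303 entries were called higher and 1480 lower. Without d36 replicate 1, 5 members were higher and 1 lower, against 891 and 341 entries.

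Other genes of splicing were taken from lists of general knowledge. The lists were chosen with earlier results of these data known, so their shares are no independent support. Of 37 tested genes of other splicing regulators, 13 were higher (35.1%, against 8.09% of entries) and 1 lower at d22 than at d0, and 15 were higher (40.5%, against 16.6% of entries) and none lower at d36. Their median log2 fold change was 0.30 at d22 and 0.35 at d36. Tia1, which binds uridine-rich introns next to 5′ splice sites, averaged 7.35 ± 0.376 RPKM at d22 and 3.34 ± 0.383 RPKM at d0, and was higher by 0.95 ± 0.14 (SE, adjusted p = 0.000634) on the log2 scale. Qk, the gene of quaking, a regulator of splicing and circular RNAs, was higher at d22 by 0.74 ± 0.13 (SE, adjusted p = 0.00210). Fubp3 was higher by 0.79 ± 0.12 (SE, adjusted p = 0.000846) at d22 and by 0.95 ± 0.12 (SE, adjusted p = 7.93e-05) at d36. Matr3, a nuclear matrix protein, was higher by 0.88 ± 0.12 (SE, adjusted p = 0.000147) at d36, and Syncrip, an hnRNP (hnRNP Q), by 0.59 ± 0.09 (SE, adjusted p = 0.000397).

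Of 20 tested SR protein kinases, partners and SR-related genes, 5 were higher and none lower at d22, and likewise 5 and none at d36 (25.0% each, against 8.09% and 16.6% of entries). Tra2b, a partner of SR proteins at exonic enhancers, averaged 32.4 ± 1.07 RPKM at d22 and 22.4 ± 3.41 RPKM at d0, and was higher by 0.52 ± 0.11 (SE, adjusted p = 0.00526) at d22 and by 0.87 ± 0.11 (SE, adjusted p = 7.93e-05) at d36. Luc7l3, whose yeast relative is a U1 protein, was higher at d22 by 0.94 ± 0.18 (SE, adjusted p = 0.00327). Srpk2, the other main kind of SR protein kinase beside the Clk kinases, was higher by 0.48 ± 0.12 (SE, adjusted p = 0.0154) at d22 and by 0.60 ± 0.12 (SE, adjusted p = 0.00260) at d36. Luc7l3 and Luc7l2 were also higher at d22 than at d15, by 0.93 ± 0.18 (SE, adjusted p = 0.0114) and 0.94 ± 0.22 (SE, adjusted p = 0.0308).

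Of 34 tested genes of the core spliceosome, 4 were higher (11.8%, against 8.09% of entries) and 1 lower at d22 than at d0, and 5 were higher (14.7%, against 16.6% of entries) and none lower at d36. These shares are near those of all entries. Their median log2 fold change was -0.02 at d22 and 0.19 at d36. The helicase gene Dhx15 was higher by 0.56 ± 0.10 (SE, adjusted p = 0.00207) at d22 and by 0.58 ± 0.10 (SE, adjusted p = 0.000805) at d36. Sf3b1, of the U2 particle, was higher by 0.52 ± 0.12 (SE, adjusted p = 0.0104) at d22 and by 0.56 ± 0.12 (SE, adjusted p = 0.00378) at d36. Snrpc, of the U1 particle, was the gene called lower at d22, at -0.36 ± 0.10 (SE, adjusted p = 0.0285). At d36 against d22, 3 of the 34 were higher (8.82%, against 8.73% of entries), the Sm protein genes Snrpd1, Snrpf and Snrpe, and none lower. Of 16 tested genes of the exon junction complex, mRNA export and nonsense-mediated decay, 1 was higher at d22 (6.25%) and 2 at d36 (12.5%), both shares below those of all entries.

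Other transcripts moved with the d36 libraries. All 5 tested carcinoma-associated genes were called higher at d36 than at d0. Sums of RPKM are over every gene of a list with values, also those not tested. They cover 8 carcinoma-associated, 12 cell cycle and 10 pan-leukocyte genes. The carcinoma-associated sum was 5.99 to 8.36 at d0, 9.92 to 12.6 at d15, 9.65 to 13.7 at d22 and 52.8 to 869 at d36. Within d36 the sum was 869, 749 and 555 in replicates 1, 7 and 8 and 52.8 in replicate 9. Rhox5, a defining gene of that list, averaged 87.0 ± 56.5 RPKM at d36 and 0.103 ± 0.0804 RPKM at d0. Of the 8 tested cell cycle genes, 7 were higher at d36, with sums of 184, 112, 131 and 32.5 RPKM in replicates 1, 7, 8 and 9 and 20.5 to 32.7 RPKM at d0. Of the 8 tested pan-leukocyte genes, 6 were higher, with sums of 235 to 416 RPKM at d36 and 280 to 304 RPKM at d0. Itgb2, Tyrobp and Coro1a averaged 12.1 ± 7.47, 9.71 ± 8.37 and 8.91 ± 8.35 RPKM at d36 and were under 1 RPKM on average in the other groups. A mean of at least 1 RPKM was reached at d0 by 2 of 10 pan-leukocyte, 3 of 8 carcinoma-associated and 2 of 12 cell cycle genes. At d36 all of them reached it. Genes of these 3 lists could thus enter the test through their d36 libraries alone, which favours calls at d36. Heat shock and cold-inducible genes, a list that holds Rbm3, were higher at d36 in 10 of 13, with sums of 606 to 1470 RPKM at d36 and 497 to 550 RPKM at d0. Of 17 immediate-early genes, which respond within minutes to handling and signals, 9 were higher, with sums of 1483 to 8614 RPKM at d36 and 1151 to 1644 RPKM at d0. Among the 12 endothelial markers 3 were lower and none higher at d36. Of 9 lung epithelium genes, 2 were called higher, Krt8 and Krt18, which the carcinoma-associated list also holds, and 1 lower; Sftpc was at -0.60 ± 0.38 (SE, adjusted p = 0.265) and Scgb1a1 at -1.15 ± 0.54 (SE, adjusted p = 0.134) at d36 over d0. Fibroblast and mural genes higher in 1 of 4, and 1 tested gene each of erythroid cells and platelets was higher. At d22 none of the carcinoma-associated, cell cycle or pan-leukocyte genes was called, while 2 of the 13 heat shock genes were higher. The part played by these transcripts in the values of the members at d36 was not tested. In 11 of the 26 members called higher at d36, replicate 9 was the lowest library of its group, and in 8 it was the highest.

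Transcript length and GC content went along with the fold changes. For the 10113 entries with both values, Spearman's rho of the log2 fold change with length was 0.42 at d22 and 0.23 at d36, and with GC content -0.35 at d22 and -0.36 at d36, as descriptions across entries that share their libraries. The members' median length was 3534 bases, against 3158 over these entries, and their median GC content was 44.1%, against 49.8%. Both were taken from the longest GENCODE vM21 transcript of a symbol, coding or not, which may not be that behind RPKM. For Clk1 it had 4865 bases and the longest coding transcript 1796, while for Srsf1 both had 5362. All values after trend removal rest on this choice. After a smooth trend on both had been taken out of each library, 9 members were called higher at d22, against 3.59% of entries, and 1 lower. At d36 7 were called higher (11.7%, against 10.1% of entries) and 5 lower, against 1517 of the 10113 entries lower. The median log2 fold change of the members was then 0.09 at d22 and 0.04 at d36, and that of the Rbm genes -0.08 and -0.04, against 0.07 and 0.24 before. At d22 the 9 were Clk4, Hnrnpa2b1, Hnrnpc, Hnrnpdl1, Rbm25, Rbm39, Srsf2, Srsf10 and Srsf11. At d36 the 7 were Hnrnpa1, Hnrnpc, Hnrnpdl1, Hnrnpm, Rbm17, Rbm39 and Srsf10. The 5 called lower at d36 were Clk3 (-0.59), Rbm10 (-0.54), Rbm4 (-0.44), Rbm22 (-0.36) and Rbm5 (-0.35). Rbm22 (-0.45) was the 1 called lower at d22. What lies behind the trend was not tested.

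**Figure D5:**
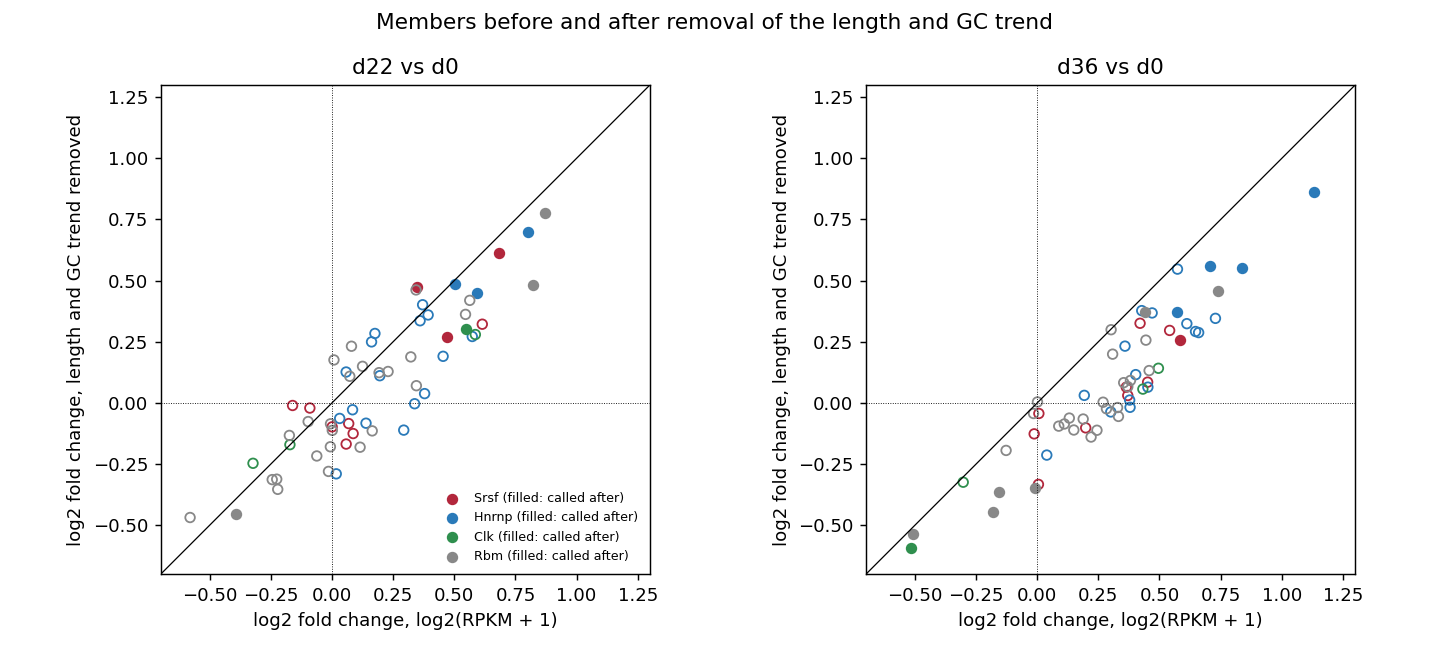
Log2 fold change of each tested member before (horizontal axis) and after (vertical axis) removal of the trend on transcript length and GC content, for d22 against d0 and d36 against d0; the diagonal marks equal values and filled points were called after removal. At d36 most points lie below the diagonal, and Hnrnpa1 keeps the largest value, 0.86.

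Some values have a further limit. Of the 61 members searched, 24 have another annotated gene with at least 500 bases at 95% identity or more. Not all of these genes are copies, since some overlap the member's own exons. For Clk3, Hnrnpab, Hnrnpm, Rbm4, Rbm12, Rbm19, Rbm42 and Srsf4 such an overlapping gene was the only match. For 11 of the 24 at least 1 match is a pseudogene, so their reads can be split. Srsf5, Srsf10, Hnrnpa1, Hnrnpa3, Hnrnpc, Hnrnpk and Rbm10 are among these 11. In 9 members over 10% of the exon bases overlap genes on the opposite strand. Whether counting used strand is not given in the sources used here, so such reads cannot be told apart. In the authors' deposited table, 20 members were higher and 1 lower at d22, and 25 were higher and 2 lower at d36, against 16.5% and 9.18% of its entries at d22 and 16.9% and 5.36% at d36.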

How the data were processed

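Expression of 17715 entries in 16 libraries (4 each of d0, d15, d22 and d36) was taken from the RPKM table that the authors deposited, with groups from the time point labels. STAR, DESeq2 and the build mm10 are named in the submitters' processing notes; versions, gene annotation, transcript length behind RPKM and strand of counting are not given in the sources used here. Whole reads could not be recovered for nearly all entries, so no count test was run. Approximate depth was read from the steps of low values, for which 402 of 4296 entries were whole in all libraries within 0.1 read. The authors also deposited a table of log2 fold changes with p-values per time point, whose comparison group is not named in the file headers; it is quoted as the authors' own.

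Entries that reached 1 RPKM in 4 or more libraries were tested with limma 3.58.1 (R 4.3.3) on log2(RPKM + 1), in 1 fit over all libraries with the trend option, 2-sided, with Benjamini-Hochberg adjustment within each of 5 contrasts at 0.05. Alternatives were a pseudocount of 0.1, no filter on low values, median-ratio scaling, fits of only the 2 groups compared, a replicate block, removal of a spline trend on transcript length and GC content, and leaving out each library. The calculation was tested on simulated data. Near-identical stretches in other genes were searched with BLAST 2.17.0 among GENCODE vM21 transcripts, on both strands. Genes that overlap the member were not left out. Tables were handled in Python 3.11.15.

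Every library's value was given for all Clk genes, for the most abundant gene and the 4 with the smallest F test p in each other family, and for the 2 largest rises and falls called in each contrast. The members and gene lists were chosen with earlier results of these data known. P-values measure the spread between libraries of a group.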

Additional observations from a re-analysis of the deposited data

Results flagged for a closer look

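In 7 of 88 groups of 4 libraries tested, over 22 members, 1 library stood apart by Dixon's ratio at its 95% critical value; chance gives about 1 in 20 groups. Clk1 was 17.6 RPKM in d0 replicate 2, with the next library at 14.5 RPKM. Srsf11 was 14.0 RPKM in d22 replicate 6, against 10.7 RPKM in the next library. Hnrnpc was 6.45 RPKM in the same d22 replicate 6, with the next at 5.06 RPKM. Srsf1 was 1.13 RPKM in d0 replicate 1, below 1.79 RPKM in the next lowest. Srsf2 was 120.9 RPKM in d36 replicate 9, and its nearest value was 96.6 RPKM. Rbm38 was 3.42 RPKM in d36 replicate 9, below 6.72 RPKM in the nearest library. Hnrnpm was 32.0 RPKM in d0 replicate 2, against 26.7 RPKM in the nearest library.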

How the results depend on the processing

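At d15 against d0 no member was called under any alternative. After removal of the trend on length and GC, the count of members higher was 9 at d22 and 7 at d36 against d0, 0 at d22 against d15 and 2 at d36 against d22; members lower were 5 at d36 against d0 and 4 at d36 against d22. Among the calls of the main fit, the log2 fold change reversed there for Hnrnpr (-0.11 at d22, -0.018 at d36) and Rbm27 (-0.019 at d36). Members without a call in the comparison changed sign as well, among them Rbm25 (0.33 to -0.05) and Hnrnph2 (0.30 to -0.04) at d36 over d0. With only the 2 groups in the fit, 2 members were lower at d22 against d0 and 2 higher at d22 against d15. At d36 against d22, 1 was then higher and 0 lower. Of the 28 calls at d36 against d0, 20 were kept and 8 lost in that fit. The calls lost were those of Srsf1, Hnrnpab, Hnrnpd, Hnrnph1, Hnrnpu, Rbm18, Rbm27 and Rbm34. Scaling left 2 higher at d22 against d15, and no filter gave 9 higher at d36 against d22. The deviations of 9 pairs of same-numbered libraries correlated at -0.11 to 0.22, with a median of 0.04. They were not compared with pairs of unlike number, so whether libraries pair by number was not settled. The replicate block, run only as an alternative, gave 7 higher and 0 lower at d36 against d0 and 0 lower at d22 against d0. At d36 against d22 it gave 1 higher and 0 lower. Shares of all entries are not given here for the fits of 2 groups, without the filter or with the replicate block. Their counts therefore cannot be set against a background. Leaving out 1 library gave 10 to 15 higher and 0 to 1 lower at d22 against d0, 18 to 28 higher and 2 to 3 lower at d36 against d0, 0 to 5 higher at d22 against d15, and 2 to 9 higher and 0 to 4 lower at d36 against d22. The call of Rbm22 was lost without d0 replicates 1, 2 or 4 or d22 replicates 4, 5 or 6; without d0 replicate 4 another member was called lower. At d22 against d15 the count was 0 without d15 replicate 6 or d22 replicate 1, and 1 without d15 replicate 4 or d22 replicates 4, 5 or 6. At d36 against d22, members higher were 9 without d36 replicate 9, 2 without d36 replicate 8 and 3 without d22 replicates 5 or 6; members lower were 4 without d36 replicate 9, 1 without d36 replicate 1, and 0 without d36 replicates 7 or 8 or any d22 library. The cause was not tested.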
